A study of Mus musculus with 4 samples.

Results

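Intronic peaks 1 to 5 kb from starts are the subject here: H3K4me3 peaks of mouse heart that lie inside a gene body, overlap no annotated exon, and sit more than 1000 bp and at most 5000 bp from the nearest transcript start. They were taken by position alone from the peak list that the authors called replicated, with GENCODE M21 as the annotation, and the fold enrichment of a peak played no part. The rule found 1698 of 24996 peaks (6.79%, exact 95% interval 6.48 to 7.11%, counting error only). Chromatin immunoprecipitation sequencing was done on whole heart of adult female B6CASTF1/J mice of 2 months. All 4 libraries carry the same treatment and genotype: pool G and pool H, each a pool of 2 heart biosamples under 1 donor record, with 2 technical replicates per pool. No control group, time or treatment was compared, and whole heart mixes cardiomyocytes, endothelial cells, fibroblasts, mural cells and others. Peaks were deposited per pool and for both pools on mm10. Both pools carry the same donor record, and the labels do not say whether the 2 biosamples of a pool are separate animals, so the spread between pools may be partly technical. The sources used here do not state the read depth, so the precision that depth gives to a peak is unknown.

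H3K4me3, trimethylation of lysine 4 on histone H3, is written by the SET1 and MLL complexes and marks the nucleosomes next to the starts of transcribed genes. CpG-rich promoters carry it most strongly, and at genes that a cell type uses heavily the mark can spread from the start into the gene body. In introns the mark is known from the edges of such domains, from alternative starts and, at low levels, from enhancers. The heart label was set beside promoter peaks at lists of marker genes. These lists were chosen with earlier results of these data known, so the counts are a description and no independent check. A promoter peak was present at 27 of 30 sarcomere, 28 of 28 endothelial, 19 of 20 fibroblast and 11 of 14 mural genes. It was present at 3 of 18 hepatocyte genes, 3 of 18 immune genes and 4 of 22 genes of skeletal muscle. Over all protein-coding genes outside chromosome Y, 13657 of 21670 (63.0%) had one, and the neuronal list, with 10 of 18, lay near that share.

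Sequence differs widely between members, and 6 windows of 300 bp around a peak summit show the range. The first 3 belong to strong members. The other 3 belong to the widest member in Ets1, the second widest in Ryr2, and a strong member in Mef2c. All were read from the RefSeq genome GRCm38.p6, the assembly of mm10, so the CAST alleles of these hybrid mice are not shown. Capitals mark every CpG.
3110082I17Rik, chr5:139371921-139372220, plus strand: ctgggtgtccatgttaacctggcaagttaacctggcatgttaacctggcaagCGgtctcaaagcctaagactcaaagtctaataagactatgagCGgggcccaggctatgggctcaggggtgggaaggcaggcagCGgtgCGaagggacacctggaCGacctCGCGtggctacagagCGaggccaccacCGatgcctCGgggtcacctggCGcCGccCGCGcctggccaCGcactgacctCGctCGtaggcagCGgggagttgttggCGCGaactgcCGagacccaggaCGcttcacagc
Fat1, chr8:44938219-44938518, plus strand: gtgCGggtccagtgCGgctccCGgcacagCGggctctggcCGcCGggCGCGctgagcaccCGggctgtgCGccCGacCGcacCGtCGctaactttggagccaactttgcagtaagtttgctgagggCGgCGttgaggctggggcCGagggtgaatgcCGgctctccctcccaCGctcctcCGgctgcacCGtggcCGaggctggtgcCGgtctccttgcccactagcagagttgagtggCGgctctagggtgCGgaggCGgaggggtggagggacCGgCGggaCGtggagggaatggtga
Arhgap23, chr11:97440343-97440642, plus strand: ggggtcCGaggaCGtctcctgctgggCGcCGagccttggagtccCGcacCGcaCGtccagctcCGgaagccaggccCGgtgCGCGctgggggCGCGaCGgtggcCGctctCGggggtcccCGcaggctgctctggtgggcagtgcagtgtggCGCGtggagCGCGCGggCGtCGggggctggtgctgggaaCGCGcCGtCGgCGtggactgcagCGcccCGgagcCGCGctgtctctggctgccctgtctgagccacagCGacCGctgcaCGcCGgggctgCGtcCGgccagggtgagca
Ets1, chr9:32699438-32699737, plus strand: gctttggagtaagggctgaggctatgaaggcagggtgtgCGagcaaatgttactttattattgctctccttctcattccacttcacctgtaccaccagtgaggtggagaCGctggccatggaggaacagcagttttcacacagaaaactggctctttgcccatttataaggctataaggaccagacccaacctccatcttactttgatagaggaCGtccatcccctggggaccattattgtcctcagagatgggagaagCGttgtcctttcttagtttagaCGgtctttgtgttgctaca
Ryr2, chr13:12103983-12104282, plus strand: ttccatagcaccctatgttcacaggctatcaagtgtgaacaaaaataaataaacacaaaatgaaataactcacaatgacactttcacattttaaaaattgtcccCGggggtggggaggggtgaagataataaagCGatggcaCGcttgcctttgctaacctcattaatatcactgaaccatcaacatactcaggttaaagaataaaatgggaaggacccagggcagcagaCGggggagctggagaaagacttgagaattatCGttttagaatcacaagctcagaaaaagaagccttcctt
Mef2c, chr13:83518374-83518673, plus strand: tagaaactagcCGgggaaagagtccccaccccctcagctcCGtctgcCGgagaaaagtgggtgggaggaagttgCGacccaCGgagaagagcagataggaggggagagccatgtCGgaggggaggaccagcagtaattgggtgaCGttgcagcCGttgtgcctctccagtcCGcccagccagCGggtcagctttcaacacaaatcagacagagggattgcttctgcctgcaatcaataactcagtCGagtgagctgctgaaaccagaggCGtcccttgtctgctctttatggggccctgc
The Arhgap23 window held 39 CpGs with 76.3% GC, the Fat1 window 29 with 70.3%, and the 3110082I17Rik window 22 with 63.0%. The Mef2c window held 12 CpGs with 58.0% GC. The Ets1 window held 5 with 48.0% and the Ryr2 window 5 with 41.0%, the fewest of the 6. CpG counts did not follow peak width over the 6: the Arhgap23 window, with the most, came from a peak of 2472 bp, and the Mef2c window from 1 of 1019 bp.

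As a class, intronic peaks 1 to 5 kb from starts were weak and narrow. Their median fold enrichment, the authors' signal value read as a ratio to a control, was 3.22 with quartiles of 2.71 and 4.02. Intronic peaks more than 5 kb from any start had a median of 3.36, and peaks at protein-coding starts one of 13.4. The median width was 437 bp for members, 453 bp for the deeper intronic peaks and 1418 bp for peaks at protein-coding starts. Together the members covered 0.958 Mb, which was 3.13% of all sequence under peaks. Only 32 members (1.88%) reached a fold enrichment of 10, where 44.3% of all peaks did. For 185 members (10.9%) the authors' q value was over 0.05, a property of 2.67% of all peaks.

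The order of median fold enrichment from members up to peaks at protein-coding starts was the same in the list of each pool. The rule applied to the list of pool G alone gave 1599 peaks and to that of pool H alone 1053. Their median fold enrichment was 3.85 in pool G and 3.72 in pool H, a mean of 3.79 ± 0.0929 (SD, n = 2 pools), against 16.1 in pool G and 11.3 in pool H for peaks at protein-coding starts. The deeper intronic peaks gave 3.98 in pool G and 3.86 in pool H. Members had a median width of 564 bp in pool G, against 537 bp for the deeper intronic peaks, and of 505 bp in pool H, against 496 bp, so that members were the wider of the intronic classes in both pools' lists and the narrower in the replicated list.

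**Figure D1:**
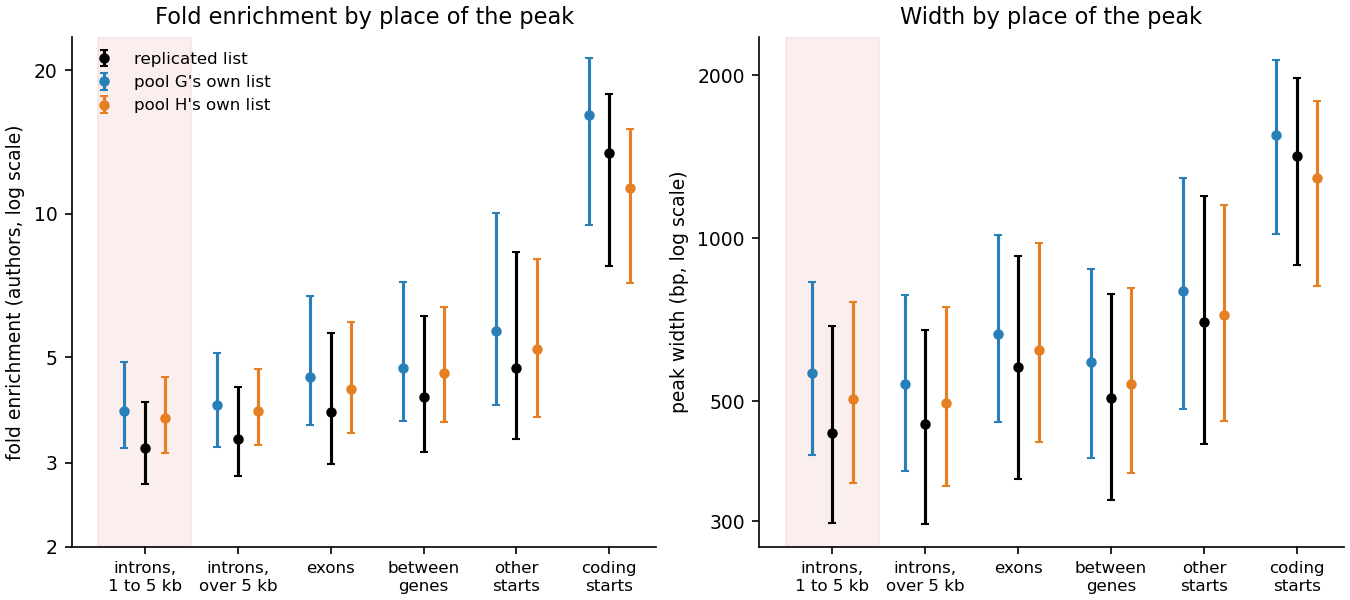
Median fold enrichment (left, log axis) and median width in bp (right, log axis) of peaks by their place; bars span the lower to the upper quartile over peaks, and colours give the replicated list and each pool's own list. Members (shaded) have medians of 3.22 and 437 bp in the replicated list, against 13.4 and 1418 bp at protein-coding starts.

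Agreement between the pools was lower for members than for the list as a whole. A peak of each pool's own list overlapped 678 members by at least 1 bp (39.9%, exact 95% interval 37.6 to 42.3%), and 78.5% of all peaks were found in both. Pool G's own list alone held 648 members, pool H's alone 64, and 308 members overlapped no peak of either own list. By their deposited names these own lists are pseudoreplicated lists, so absence from one is not absence of the mark in that pool. Where a member is given as in 1 pool only, these own lists are meant. The deeper intronic peaks were found in both pools in 42.7% of cases. Members found in both pools had a median fold enrichment of 4.23 and a median width of 698 bp, those found in neither 2.69 and 272 bp. All 32 members at a fold enrichment of 10 or more were in both pools. Some members sat under a wider peak of a pool: of 1326 members overlapped in pool G, 249 (18.8%) were overlapped by a peak that itself reached a start, and of 742 in pool H, 19 (2.56%) were. For such members the pool's fold enrichment belongs to the promoter peak and is not given below as the member's own. For 562 members found in both pools, neither pool's overlapping peak reached a start. Over these, log2 fold enrichment had a Pearson correlation of 0.766 across members (Spearman 0.684). Neighbouring members can match the same pool peak, as in Clic5, where neighbours match 1 pool G peak of 4.20. The 562 members share 1 donor record and their libraries within each pool, and are not independent.

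Many members continued a promoter domain. With peaks no more than 1000 bp apart joined into domains, 869 members (51.2%) shared a domain with a peak at a protein-coding start, 46 with a peak at another start, and 783 (46.1%) with none. Over all peaks, 69.2% were in such a domain, peaks at protein-coding starts included. Of the intronic peaks more than 5 kb from starts, 3.69% were. The 869 joined members lay a median of 265 bp from the promoter peak, with quartiles of 144 and 708 bp. Joining bridges at most 1000 bp at a time, so this gap and the lower share in deeper introns are in part set by it. Their fold enrichment was a median of 0.239 of that of the promoter peak, and 32 of the 869 exceeded it. Of 13252 promoter domains, 716 (5.40%) held a member, and these had a median width of 3486 bp, against 1665.5 bp for promoter domains without one. A domain with a member must reach more than 1000 bp from a start, so part of that width is set by the choice of members. As many as 4 members shared 1 domain, and 123 domains held 2 or more members.

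Members were fewer at greater distance, while median fold enrichment and width were close in the 4 bins. There were 680 members at 1 to 2 kb, 467 at 2 to 3 kb, 320 at 3 to 4 kb and 231 at 4 to 5 kb. The share joined to a promoter domain was 68.7, 52.5, 31.9 and 23.8% in the same order, a fall in part set by the joining distance of 1000 bp. Median fold enrichment was 3.17, 3.26, 3.17 and 3.26, and median width 427, 441, 460 and 437 bp.

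Most members lay on the transcribed side of the start: 1253 (73.8%) were downstream of the nearest start and 445 upstream. Among all peaks 1 to 5 kb from a start, 64.7% were downstream. Exonic peaks at that distance were downstream in 78.7% of cases, and peaks between genes in 29.9%. An intron lies downstream of its own transcript's start by construction, so the count was also set against the intronic sequence available. Members numbered 8.87 per Mb of intron downstream of the nearest start and 4.69 per Mb upstream of it. Over both sides the density was 7.19 per Mb, against 2.48 intronic peaks per Mb at more than 5 kb.

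The share of intronic bases under any peak was also taken, with peaks that reach in from a start included. At 1 to 2 kb from the nearest start, 5.36% of intronic bases downstream and 1.10% upstream were covered. At 2 to 3 kb the values were 1.80% downstream and 0.521% upstream, and at 4 to 5 kb 0.569% downstream and 0.258% upstream. Members made up a small part of the coverage nearest to starts: at 1 to 2 kb they covered 0.187 of the 2.23 Mb under peaks downstream and 0.0543 of the 0.321 Mb upstream. From 10 to 20 kb the shares were 0.178% downstream and 0.184% upstream.

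**Figure D2:**
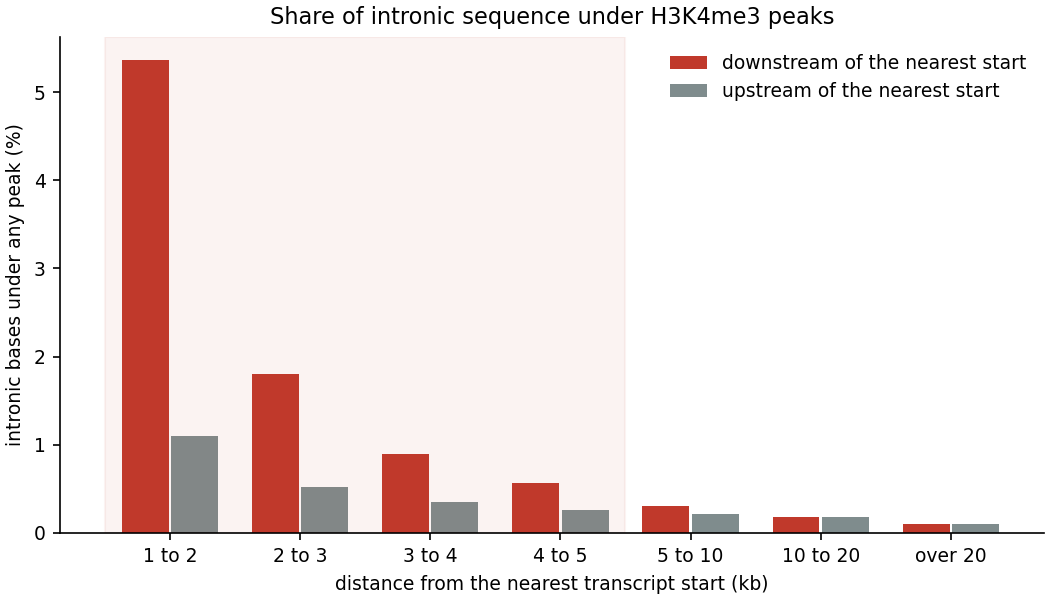
Percent of intronic bases under any replicated peak by distance from the nearest transcript start in kb, downstream (red) and upstream (grey); the shaded bins are the distances at which members lie, and peaks that reach in from a start count too. Coverage is 5.36% downstream and 1.10% upstream at 1 to 2 kb, and 0.178% and 0.184% at 10 to 20 kb.

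First introns held most members. In 1397 cases (82.3%) the peak lay in the first intron of at least 1 transcript of its host gene, against 56.3% of the deeper intronic peaks. Members lie close to a start by the rule, so part of this difference is set by their choice. The share of first introns in the intronic sequence available was not taken. The nearest start belonged to the host gene for 1376 members, and the host was protein-coding for 1560. The members had 1323 different host genes, of which 1050 held a single member and 21 held 4 or more. Protein-coding hosts numbered 1200, and 1138 of them (94.8%) had a promoter peak, where 63.0% of all protein-coding genes did. Hosts of the deeper intronic peaks had one in 91.5% of cases. Among hosts of members whose domain held no start peak, 502 of 562 (89.3%) had a promoter peak elsewhere.

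CpG-rich sequence was rare. A member was called CpG-rich where its whole sequence had a GC share of 0.5 or more and 0.6 or more of the CpGs that its bases predict. This held for 75 members (4.42%), against 5.14% of the deeper intronic peaks, 54.3% of peaks at protein-coding starts and 39.7% of all peaks. The 75 CpG-rich members stood higher than the others in the same list, with a median fold enrichment of 4.81 against 3.17. They were in both pools in 74.7% of cases, and the other members in 38.3%. A promoter domain held 13 of the 75, and 61 lay in a domain without any start peak. Of the 32 members with a fold enrichment of 10 or more, 10 were CpG-rich. The strong member in Fat1 was among them, while those in 3110082I17Rik and Arhgap23 were not, although their summit windows shown above are dense in CpG. Median GC content was 47.8% in members and 55.5% in peaks at protein-coding starts.

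Of the 12 strongest members in both pools, 11 lay in a domain without a start peak. The highest stood in the second intron of 3110082I17Rik, at chr5:139371399-139372522 and 1654 bp upstream of the microRNA gene Mir339, with a fold enrichment of 20.7 (24.4 in pool G, 16.6 in pool H). It ranked 1872 among all 24996 peaks. In the first intron of Nenf, which encodes the secreted protein neudesin, a peak of 884 bp had 16.6, with 20.5 in pool G and 12.8 in pool H. No start peak lay within its domain, and the nearest promoter peak was 3819 bp away.

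Several of these strong members held a RefSeq start, although no GENCODE M21 start lies within 1000 bp of them. In Frrs1, a gene for a ferric-chelate reductase, the member at chr3:116861189-116862062 had a fold enrichment of 16.0 (17.3 in pool G, 14.5 in pool H) and held a curated RefSeq start of Frrs1. In Arhgap23, which encodes a GTPase-activating protein, the 2472 bp member at chr11:97439841-97442312 had 15.6 (16.7 in pool G, 14.8 in pool H) and held a RefSeq model start of Arhgap23, and its summit window is the one with 39 CpGs. Fat1, an atypical cadherin gene, had a 2342 bp member of 17.6 (18.2 in pool G, 14.1 in pool H), 143 bp from a promoter peak of 9.72 and also over a RefSeq model start. In all, 43 members (2.53%) held a RefSeq start inside the peak, against 2.86% of the deeper intronic peaks. Within 1000 bp of the peak there was one for 146 members (8.60%), and for 9.87% of all peaks away from GENCODE starts. Of the 146, 23 were curated and 123 were model transcripts.

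The remaining members of the 12 strongest in both pools had fold enrichments of 11.9 to 15.1. They lay in Trim7 and Trim17, E3 ubiquitin ligase genes, 4931414P19Rik, Cbx7, a subunit gene of the polycomb repressive complex PRC1, Pde4a, a cAMP phosphodiesterase gene, and the transcripts Gm11292 and Gm49482. None of these 7 shared a domain with a start peak. In Cbx7 the member reached 14.7, with 17.1 in pool G and 12.3 in pool H, and the nearest promoter peak, 3416 bp away, had 16.0. Pde4a reached 12.6, with 14.4 in pool G and 10.6 in pool H.

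Of the 8 widest members, 5 continued a promoter domain. Ets1, an ETS transcription factor gene of endothelial and blood cells, held the widest, 4230 bp in its first intron at chr9:32698603-32702832 with a fold enrichment of 7.51 (8.86 in pool G, 6.63 in pool H). It began 200 bp from a promoter peak of 19.1, and the whole domain spanned 8589 bp. Ryr2, the calcium release channel gene of the cardiac sarcoplasmic reticulum, held 3915 bp at chr13:12100385-12104299 with 5.44. Pool H's own list had 1 peak of 5.40 there, while pool G's own list had a pair, 7.37 and 6.82. Tspan13, a tetraspanin gene, followed with 3879 bp, then Bcl6, a zinc finger repressor gene, with 3542 bp, and Erg, an endothelial ETS factor gene, with 3087 bp. In the same order, the strongest overlapping peak had 3013, 4053 and 3995 bp in pool G's own list. In pool H's own list it had 399, 1403 and 1008 bp. The Bcl6 member held a curated RefSeq start of Bcl6 and lay 2288 bp from the nearest promoter peak. These 3 members also lay in promoter domains, of 7975, 10927 and 9688 bp. The wide members in Lncpint, a long noncoding RNA gene (2986 bp), and Adamts17, a metalloprotease gene (2532 bp), did not.

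**Figure D3:**
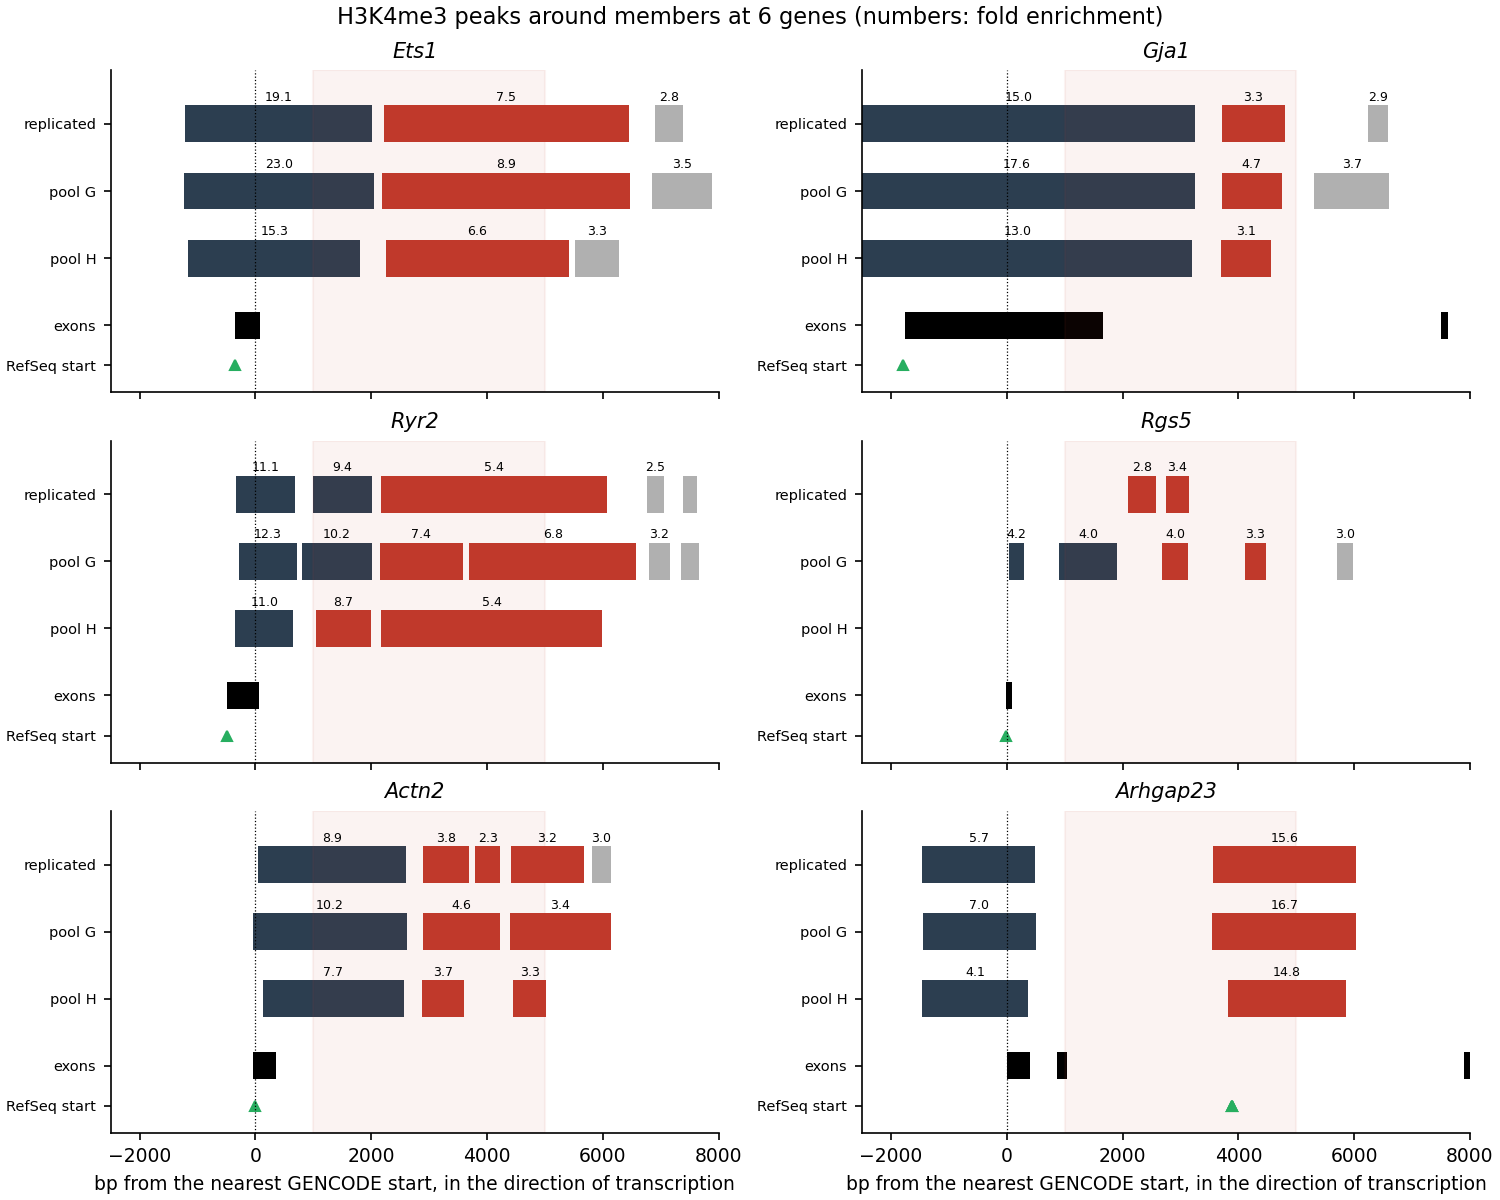
Peaks around members at 6 genes, in bp from the nearest GENCODE start along the direction of transcription, for the replicated list and each pool's own list; red bars are intronic peaks 1 to 5 kb away by each list's own edges, dark bars peaks within 1000 bp of a start, grey bars other peaks, black bars exons, and triangles RefSeq starts, with the fold enrichment above each peak. At Arhgap23 the member (15.6) stands over RefSeq starts and above the peak at the GENCODE start (5.68), while at Ets1 and Ryr2 the members follow closely on the start peaks.

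Some genes held several members in a row. Actn2, which encodes alpha-actinin of the Z disc, held 3 members of 2.29 to 3.77, at 2885 to 4407 bp from its start. Pool G's own list held 2 intronic peaks there, of 4.58 and 3.42, and pool H's own list 2, of 3.67 and 3.29. The most members, 10, fell in Gm20388, an annotated gene so long that it encloses many others, and their nearest starts belonged to other genes. Art3 and Mtus1 held 5 each.

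Genes of heart cell types often hosted a member. Of 21670 protein-coding genes, 5.68% did, and of those with a promoter peak 8.52%. Among sarcomere genes 10 of 30 did, among ion channel and calcium genes 11 of 32, among genes of fatty acid use and respiration 15 of 36, and among cardiac transcription factor genes 14 of 36. Endothelial genes had 12 of 28, fibroblast genes 6 of 20, mural and smooth muscle genes 6 of 14, signalling genes 12 of 28 and circadian genes 5 of 19. Hepatocyte, neuronal and skeletal muscle lists had 1 each, of 18, 18 and 22, the immune list 0 of 18, and the housekeeping list 2 of 16. Few genes of some of these lists had a promoter peak. Of genes with one, 33.3% hosted a member in the sarcomere list (27 genes) and also in the hepatocyte list (3 genes), against 1 of 10 in the neuronal list and 12.5% of 16 in the housekeeping list. Per Mb of eligible intron the members numbered 45.9 in sarcomere genes, 21.5 in ion and calcium genes, 69.7 in fatty acid genes, 44.1 in transcription factor genes, 67.6 in endothelial genes, 43.2 in fibroblast genes, 126.7 in mural genes, 34.1 in signalling genes and 29.6 in circadian genes. They numbered 32.5 in housekeeping, 11.7 in hepatocyte, 6.10 in skeletal muscle and 3.11 in neuronal genes, against 7.48 over all protein-coding genes. The ion and calcium and the circadian lists thus lay below the housekeeping list by this measure. By the list of pool H alone, 4 sarcomere genes, 6 ion and calcium genes, 8 fuel genes and 7 signalling genes hosted a member, and by that of pool G alone 9, 13, 11 and 10. Pool H's list also gave 0 neuronal and 1 housekeeping gene, and the hepatocyte list had 0 in each pool's own list and in the pseudoreplicated list. With -log10 q of 5 or more asked of each peak, 665 members were left, and the counts were 3 sarcomere, 2 ion and calcium, 5 fuel, 5 transcription factor, 8 endothelial, 3 fibroblast, 2 mural, 6 signalling and 0 circadian genes, and 0 in the housekeeping and hepatocyte lists; this count was added after seeing the data. The lists were chosen with earlier results known and hold genes of heart, so their share is a description, and no list was tested. Differences in the share of each cell type and in the level per cell cannot be told apart in whole tissue.

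**Figure D4:**
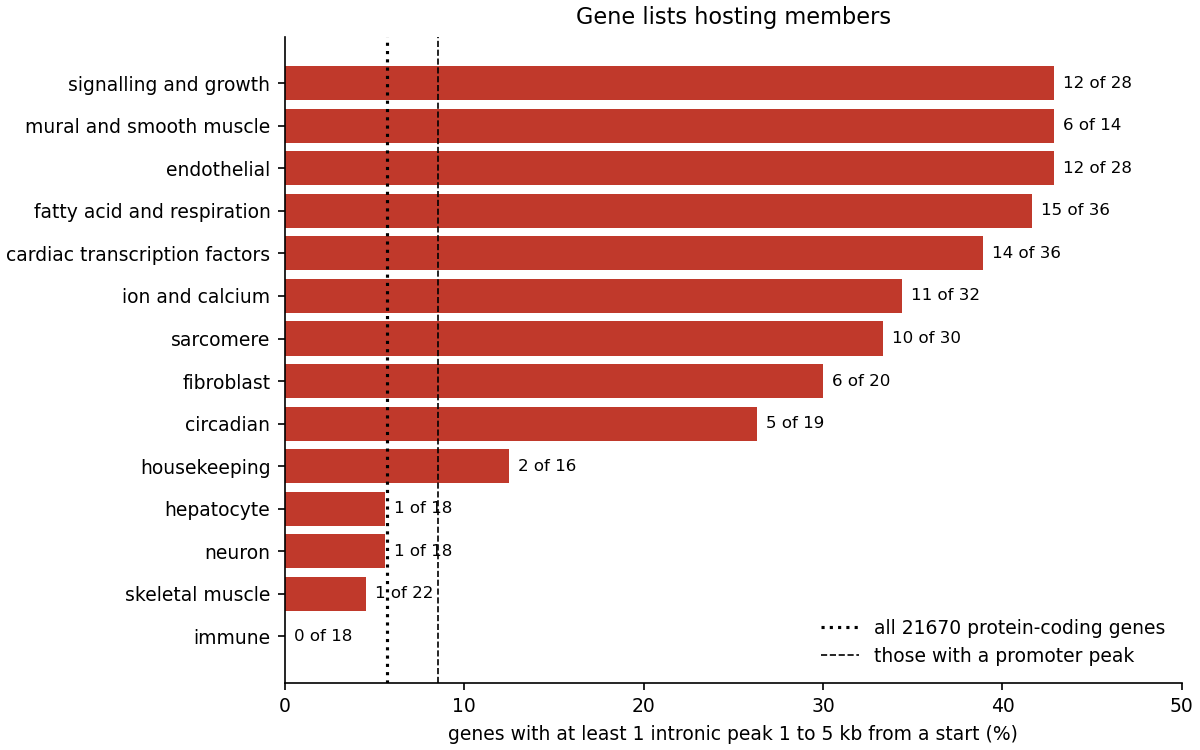
Percent of genes in each list that host at least 1 intronic peak 1 to 5 kb from a start, with counts; the dotted line is the share of all protein-coding genes (5.68%) and the dashed line that of those with a promoter peak (8.52%). Lists of heart cell types lie between 30.0 and 42.9%, the hepatocyte, neuron, skeletal muscle and immune lists at or below 5.56%.

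In cardiomyocyte genes many members lay inside promoter domains: 11 of 14 members in sarcomere genes and 12 of 16 in ion and calcium genes were joined to one, at median fold enrichments of 2.91 and 2.92. Joined members were 18 of 22 in transcription factor, 9 of 11 in fibroblast, 14 of 20 in endothelial, 15 of 24 in fuel and 5 of 12 in mural genes. In all protein-coding hosts 856 of 1560 members were joined, and the 1560 had a median of 3.17. Flnc, the gene of filamin C, which links the Z disc to the membrane, held the highest of the sarcomere list, 5.89 (8.12 in pool G, 3.54 in pool H). Ldb3, another Z-disc gene, held 4.03, in pool G only. Casq2, the calcium store protein of the sarcoplasmic reticulum, held 3.36. Gja1, the gene of connexin 43, chosen after its values were seen, held 3.32 (4.73 in pool G, 3.14 in pool H) inside a domain of 7657 bp.

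Fuel and respiration genes held 24 members with a median of 3.11. Cd36, the fatty acid transporter, held 3 with a maximum of 5.01. Cs, citrate synthase, held 2 in its first intron with a maximum of 4.67, and both overlapped the same pool G peak of 6.86. The stronger of them held a RefSeq model start of Gm51822. Lpl, lipoprotein lipase, held 3 with a maximum of 4.06.

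Transcription factor genes held the strongest list members. Nfib reached 9.84 in 2360 bp, with 7.21 in pool H, while in pool G the stretch lay under a peak that reached a start. Mef2c reached 8.39, with 10.7 in pool G and 4.62 in pool H, at chr13:83517902-83518920, 4553 bp from the nearest start and in a domain without a start peak. Gata4, chosen after its values were seen, held 3 members, of 5.58, 5.06 and 3.84. Smad7, an inhibitor of TGF-beta signalling, held 4 in 1 intron, with a maximum of 5.67.

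Genes of the other cell types held members with median fold enrichments of 3.61 in the endothelial, 3.17 in the fibroblast and 2.98 in the mural list. Erg and Ets1 (above) and Flt1, a VEGF receptor gene with 5.77, led the endothelial list. Col3a1, a fibrillar collagen gene, held 5.71 (7.42 in pool G, 4.62 in pool H), above its promoter peak of 4.35. Sparc, a matrix glycoprotein gene, held 5.09 and Fstl1 held 3.75. Notch3, the mural-cell Notch receptor, held 5.28 (7.71 in pool G, 4.36 in pool H) in a domain without a start peak, and Myocd, a smooth muscle and cardiac coactivator, held 3 of 2.57 to 3.75. Among signalling genes, Epas1, which encodes HIF-2-alpha, held 5.63 (6.12 in pool G, 5.64 in pool H), Fgfr1 4.71 and Vegfa 4.25. Among circadian genes, Npas2 held 3.44 (in pool G only), Cry2 3.09 (in pool H only) and Per2 a maximum of 2.79. The housekeeping members, in Hprt and Ywhaz, had 3.17 and 2.52, the latter in pool G only. Stmn2 in the neuronal list held 3.65, in pool G only. Trf in the hepatocyte list held 2.50, in neither pool's own list and with a -log10 q of 1.33.

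Of the 1560 members in protein-coding hosts, 65 lay in 62 genes with no promoter peak. Their median fold enrichment was 4.03, 36 of them (55.4%) were in both pools, 8 had a RefSeq start within 1000 bp and 7 were CpG-rich. Akap6, the gene of a scaffold at the nuclear envelope of cardiomyocytes, is 1 of these and was chosen after its values were seen: its 2467 bp member had 5.82 (7.69 in pool G, 5.33 in pool H) and held a RefSeq model start of Akap6. Rgs5, a pericyte gene of the mural list, held members of 3.36 and 2.78, and pool G's own list, but not pool H's, had peaks of 4.17 and 3.98 within 1000 bp of its start. Tnni1, the slow troponin I gene of the skeletal muscle list, held 4.71 (5.30 in pool G, 4.63 in pool H), with no promoter peak.

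Short motifs were counted in the 300 bp windows as a description of base composition and letters, on both strands. The letters searched were AGATAAG for GATA, CTA and TAG 4 bases apart for MEF2, CATTCC for TEAD, CCGGAAG for ETS, TGANTCA for AP-1, CAGCTG for an E-box, AAGGTCA for ERR, GGGCGG for a GC box, GCGC and GCGC 2 bases apart for NRF1, CCAAT for the CCAAT box, TATAAA for a TATA box and TTGGCA for an NFI site. MEF2 letters can hold the TATA letters, and did so in 0 of the 101 member windows with MEF2 letters. Shares in members were close to those in the deeper intronic peaks for most letters. GC box letters were in 170 of 1698 member windows (10.01%), 13.2% of deeper intronic ones, 7877 of 15755 at protein-coding starts and 38.8% of all peaks. TATA letters ran the other way, in 15.1% of member windows, 14.6% of the deeper ones, 3.98% at protein-coding starts and 6.94% of all peaks. NRF1 letters were in 0.471% of members and 3.84% of all peaks, and ETS letters in 3.06% and 6.96%.

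Letters of factors that act in heart muscle were commoner in members than at starts, as in deeper introns. This was not particular to them, since TATA, CCAAT and NFI letters were commoner in members than at starts too. MEF2 letters were in 5.95% of members, 6.23% of the deeper intronic peaks, 2.08% of peaks at protein-coding starts and 2.996% of all peaks. GATA letters were in 4.42%, 4.78%, 1.37% and 2.33% of the same sets, and AP-1 letters in 8.48%, 8.41%, 3.31% and 4.87%. TEAD letters were in 17.6%, 16.9%, 10.4% and 12.5%, and ERR letters in 5.59%, 5.19%, 3.46% and 4.08%. CCAAT letters were in 29.6% of members, 18.9% of peaks at protein-coding starts and 22.2% of all peaks. NFI letters were in 16.3%, 9.01% and 11.4% of these sets, and E-box letters in 18.9%, 17.2% and 18.3%. Promoter windows are richer in GC, and what part that has in these shares was not tested.

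**Figure D5:**
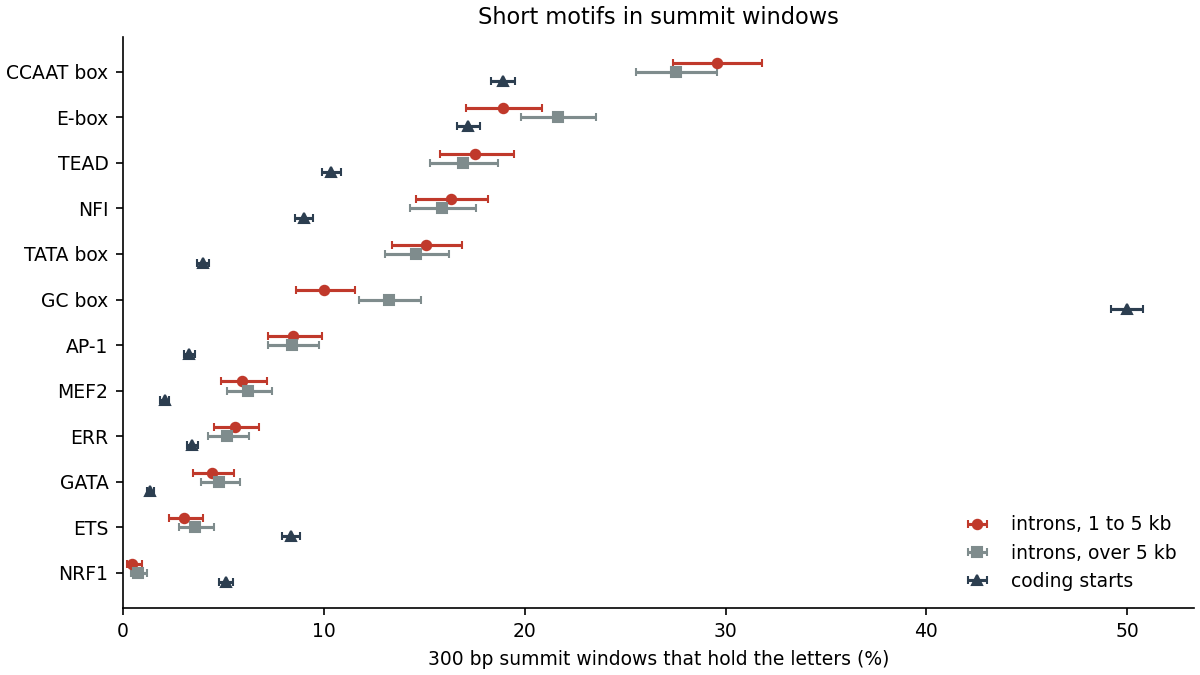
Percent of 300 bp summit windows that hold each motif's letters, in members, intronic peaks over 5 kb away and peaks at protein-coding starts; bars are exact 95% binomial intervals, counting error only. GC box letters are in 10.01% of members and 38.8% of all peaks, and TATA letters in 15.1% of members and 3.98% of start peaks.

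A few stretches show the letters in named members, in capitals, with up to 10 bases on either side. The stretch in Flnc comes from a member of 5.89, that in Cd36 from 5.01, that in Gja1 from 3.32 and that in Synpo2l, a Z-disc gene chosen after its values were seen, from 2.91.
Flnc, GATA letters, chr6:29435196-29435222, plus strand: gaggggctgaAGATAAGccagccctgg
Cd36, ETS letters, chr5:17844635-17844661, minus strand: tgagctctcaCCGGAAGcagcaaagca
Gja1, TEAD letters, chr10:56383154-56383179, plus strand: ttaatcccagCATTCCtgaggcaggg
Synpo2l, MEF2 letters, chr14:20662869-20662898, plus strand: cctgttacccCTATAACTAGgacacacaga
The letters began 14 bp after the summit in Gja1, counted along the plus strand. A match describes letters and no binding.

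At the bounds of the rule, the member nearest to 1000 bp lay in Ghr, the growth hormone receptor gene, at 1004 bp with a fold enrichment of 3.09. The intronic peak just outside lay in Ston1 at 1000 bp with 3.55. At the far bound, a member in Smad7 lay at 5000 bp with 2.56, and the peak just outside, in 3110082I17Rik, at 5009 bp with 3.87.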

How the data were processed

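The 4 narrowPeak lists on mm10 were used: the replicated list of both pools, from which all members come, the pseudoreplicated list of both pools, and the own list of each pool. Each pool's own list is by its deposited name a pseudoreplicated list too. The words pseudoreplicated list, where used alone, mean that of both pools. Per the deposited library notes, they were made from the alignments of the pools, with no values per technical replicate; the sources used here name no peak caller or threshold. The deposited signal value of a peak was taken as the authors' fold enrichment over a control (a ratio), which is an assumption. The -log10 q values are the authors' too. The deposited -log10 p column was not used. Classes of peaks are compared by fold enrichment within a list only. Between lists, fold enrichments are set side by side and correlated across peaks without rescaling.

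Distances ran from the nearest peak edge to any GENCODE M21 transcript start. Promoters reached 1000 bp to both sides of protein-coding starts, and RefSeq sequence and starts came from GRCm38.p6. Where several genes enclosed a peak, a protein-coding gene, then the one with the nearest start, was its host. Intron numbers are those of the longest enclosing transcript. Shares carry exact (Clopper-Pearson) 95% intervals. No test was run, because peaks of 1 list are not replicates and there are only 2 pools, under 1 donor record. Members, lists, motifs and the rule for named genes were chosen with earlier results of these data known. The rule named hosts of the 12 strongest members in both pools, the 8 widest, the 8 genes with most members, the 8 strongest without a start peak in their domain, up to 3 genes per list, and peaks at the bounds; not every gene it names is given. Interval code was tested on simulated data against bedtools 2.31.1, with equal results. Other software was matplotlib 3.10.9, scipy 1.17.1, pandas 2.3.3, numpy 2.4.6 and Python 3.11.15.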

Additional observations from a re-analysis of the deposited data

How the results depend on the processing

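With 1 pool's own list in place of the replicated one, the member count was 1053 to 1599, the median fold enrichment 3.72 to 3.85 and the median width 505 to 564 bp. In those lists 3.69 to 7.22% of members were CpG-rich, 94.4 to 94.8% of hosts had a promoter peak, 46.2 to 55.3% of members were joined to a promoter domain and 72.1 to 76.1% lay downstream. GC box, TATA and MEF2 letters were in 10.4 to 13.5%, 14.2 to 14.4% and 4.94 to 5.25%. The pseudoreplicated list gave a median fold enrichment of 3.09, 95.2% of hosts with a promoter peak and TATA letters in 15.8%. A -log10 q of at least 5 left 665 members, with a median fold enrichment of 4.42, a width of 660 bp, 76.1% in both pools, 41.2% joined, 71.0% downstream, 8.87% CpG-rich and 90.8% of hosts with a promoter peak; GC box, TATA and MEF2 letters were in 16.1%, 13.4% and 5.41%. With protein-coding transcripts only, 66.8% were joined, 85.9% lay downstream and 95.7% of hosts had a promoter peak. The joined share was 0% at a gap of 0 bp, where only touching peaks join, and 66.7% at 3000 bp. A CpG ratio of 0.5 gave 7.48% CpG-rich members. Windows of 150 bp held GC box, TATA and MEF2 letters in 4.95%, 7.60% and 3.12%. An overlap of 50% of both peaks put 28.0% of members in both pools. In all, 29 values, some of them given above, moved by no more than the spread between pools or stayed within 1.5 times, and 36 moved further. A change of direction was not assessed by this count. The order of the intronic classes by median width did differ between the replicated list and the pools' own lists, as given above. Counts of list genes with a member, recomputed after the data were seen, stayed within 1.5 times in 37 of 56 cases, and those that moved further, under a pool's own list, the pseudoreplicated list or a -log10 q of at least 5, are given with the gene lists above. No paired analysis was possible because the lists were called per pool and technical replicates have no values of their own. Depth limits pool comparisons and is not known.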
